A study of Mus musculus with 4 samples.

Results

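The genes described here encode the proteasome and the proteins that assemble, open or inhibit it. They were chosen by name: every row whose symbol begins with Psma to Psmg followed by a number and that is listed in all 4 tables. This gave 50 genes of 17478 listed in at least 1 table and 14469 listed in all 4. By role they are 8 alpha ring genes, 4 structural beta genes, 3 standard and 3 immunoproteasome catalytic genes, 1 thymic catalytic gene, 6 ATPases, 3 other base subunits and 8 lid subunits of the cap, 3 cap and 4 core assembly chaperones, 5 activators and 1 inhibitor. The remaining match, Psmc3ip, carries the letters but encodes a meiotic recombination protein that was named for binding an ATPase of the cap, and it is no subunit.

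RNA was sequenced from CD4+ T cells of C57BL/6 mice. Naive cells (CD44 low, CD62L high) were sorted from spleen and lymph nodes of animals aged 6 to 8 weeks, stimulated through CD3 and CD28, and kept under conditions that make Th9 cells, the helper cells that secrete interleukin 9, for 3 days. The wild type gave 2 libraries (WT1 and WT2), and mice labelled BFAR-/-, whose deficiency the protocol describes as conditional in T cells, gave 2 more (KO1 and KO2). The sources used here do not give the Cre driver, the deleted exons or the number of animals behind a library. The p-values below therefore measure only the spread between these libraries, which may be technical. Every library came from the same strain, stimulation and culture time.

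The proteasome degrades proteins that carry ubiquitin chains. Its barrel-shaped core holds outer alpha rings, which gate the entrance, and inner beta rings, in which a few subunits cut peptide bonds. A cap made of a base with ATPases and a lid recognises, unfolds and feeds in the substrate. In lymphocytes the standard catalytic subunits are replaced in part by immunoproteasome subunits, which interferon gamma induces and which favour peptides for display on MHC class I. Activated T cells make and degrade much protein, and the proteasome also processes NF-kB precursors and removes cyclins.

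The libraries held 19058009 to 19782923 expected counts. Bfar, which encodes a ubiquitin ligase of the endoplasmic reticulum, had 12.1 and 11.2 FPKM (fragments per kilobase of transcript, scaled to library size) in wild type and 2.88 and 2.57 in the knockout, so both knockout libraries match their label. T cell markers were high, with a summed level over 6 genes of 1050 to 1070 FPKM in wild type and 1160 to 1190 in the knockout. Of the 6, 4 (Cd3e, Cd3g, Cd4 and Cd2) were called higher (all tested genes: 13.6%). Of the markers listed for other cells, the 4 B cell genes summed to 4.16 and 4.21 FPKM in wild type and 3.33 to 3.68 in the knockout. Myeloid markers summed to at most 0.08 FPKM, with Lyz2 and Csf1r not listed, dendritic cell markers to 1.07 to 1.81, the natural killer marker to at most 0.02 and the CD8 markers to 6.54 to 7.46. Whether other cells had a part in the results below was not tested. In such bulk samples fewer cells of a type and less RNA per cell cannot be told apart.

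Proteasome transcripts were slightly lower in Bfar-deficient cells, and none was called higher. Of the 50 members, 19 fell and 0 rose in edgeR's quasi-likelihood test (Benjamini-Hochberg adjusted p under 0.05), whereas 13.2% of all 12677 tested genes fell and 13.6% rose. All 50 passed the filter on low counts. Members are abundant, with a median of 81.8 FPKM in wild type against 9.88 for all tested genes. Of the 33 members of at least 50 FPKM in wild type 16 fell, and of the 17 below it 3 fell. The shares over all tested genes given here are not matched for level. The falls were small, from 8.78% (Psma7) to 18.1% (Psmb5), with adjusted p-values between 0.000355 and 0.0432. The median of the log2 fold changes (knockout over wild type) was -0.11 over the members and -0.002 over all tested genes. Point estimates lay below 0 for 47 members, against 50.4% of all tested genes, and the exceptions were Psmb9, Psme2b and Psme4. In FPKM, both knockout libraries lay below both wild-type libraries for 39 members (all tested genes: 32.6%) and above them for 1, Psme4 (all tested genes: 30.2%). Summed over the members, the level was 3986 and 4047 FPKM in wild type and 3647 and 3666 in the knockout, a fall of 8.96% in the mean.

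The number of calls depended on the test. DESeq2 called 10 members lower (6.58% of genes) and so did edgeR with no filter on low counts (5.03%). Without KO1 the count was 10 (8.65%), and without KO2 it was 11 (6.49%). The count of higher members was 0 in each of these fits. Psmb5, Psmc1, Psmc4, Psmc5, Psmd7, Psmd11 and Psmd12 were called lower under each of the 13 alternative settings of scaling, filter, tool, unit, library left out or replicate block. Members are short, with a median transcript length of 1295 bases against 2802 for all tested genes. With trends on length and GC content removed (a fit added after the data were seen), 15 of the 19 were still called; the exceptions were Psma7 (0.18), Psmd14 (0.0536), Psmd8 (0.0693) and Psmg1 (0.101), with the edgeR adjusted p in brackets.

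**Figure D1:**
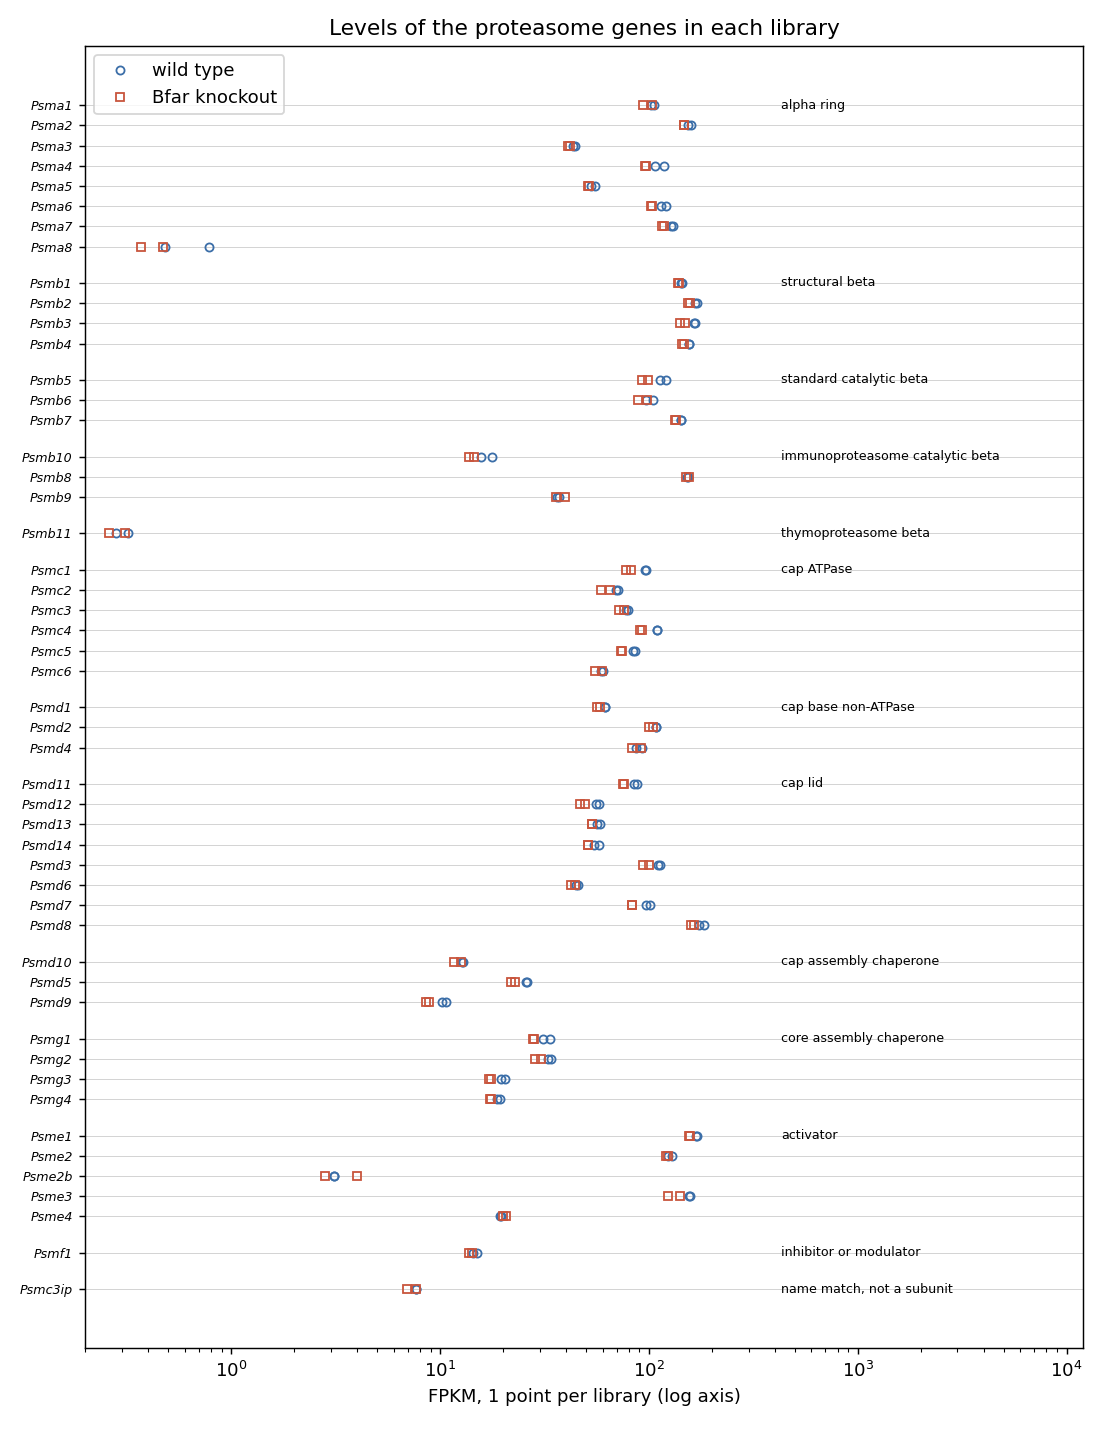
Level of each proteasome gene in FPKM (log axis), 1 point per library, with wild type as circles and Bfar knockout as squares, grouped by role. Psma8 and Psmb11 lie below 1 FPKM and most subunits between 40 and 180 FPKM, where the knockout squares sit at or to the left of the wild-type circles for most genes.

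The 14 standard core genes ranged from 43.7 FPKM for Psma3 to 168.0 for Psmb2 in wild type, with a median of 123.0, and the coefficient of variation across them was 31.1% to 32.1% in each library. Psma3 has a deposited length of 2374 bases, averaged over its 3 transcripts, against 963 for Psma2, and its expected counts (2075 and 2035 in wild type) are near those of Psma6 (2197 and 2324). Psma5 was low in both units, at 53.9 FPKM and 1248 and 1310 expected counts in wild type, with a length of 1217 bases. The cap genes ran from 45.3 FPKM (Psmd6) to 178.6 (Psmd8), the highest level of any member. Assembly chaperones were lower, between 10.4 FPKM (Psmd9) and 33.4 (Psmg2).

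**Figure D2:**
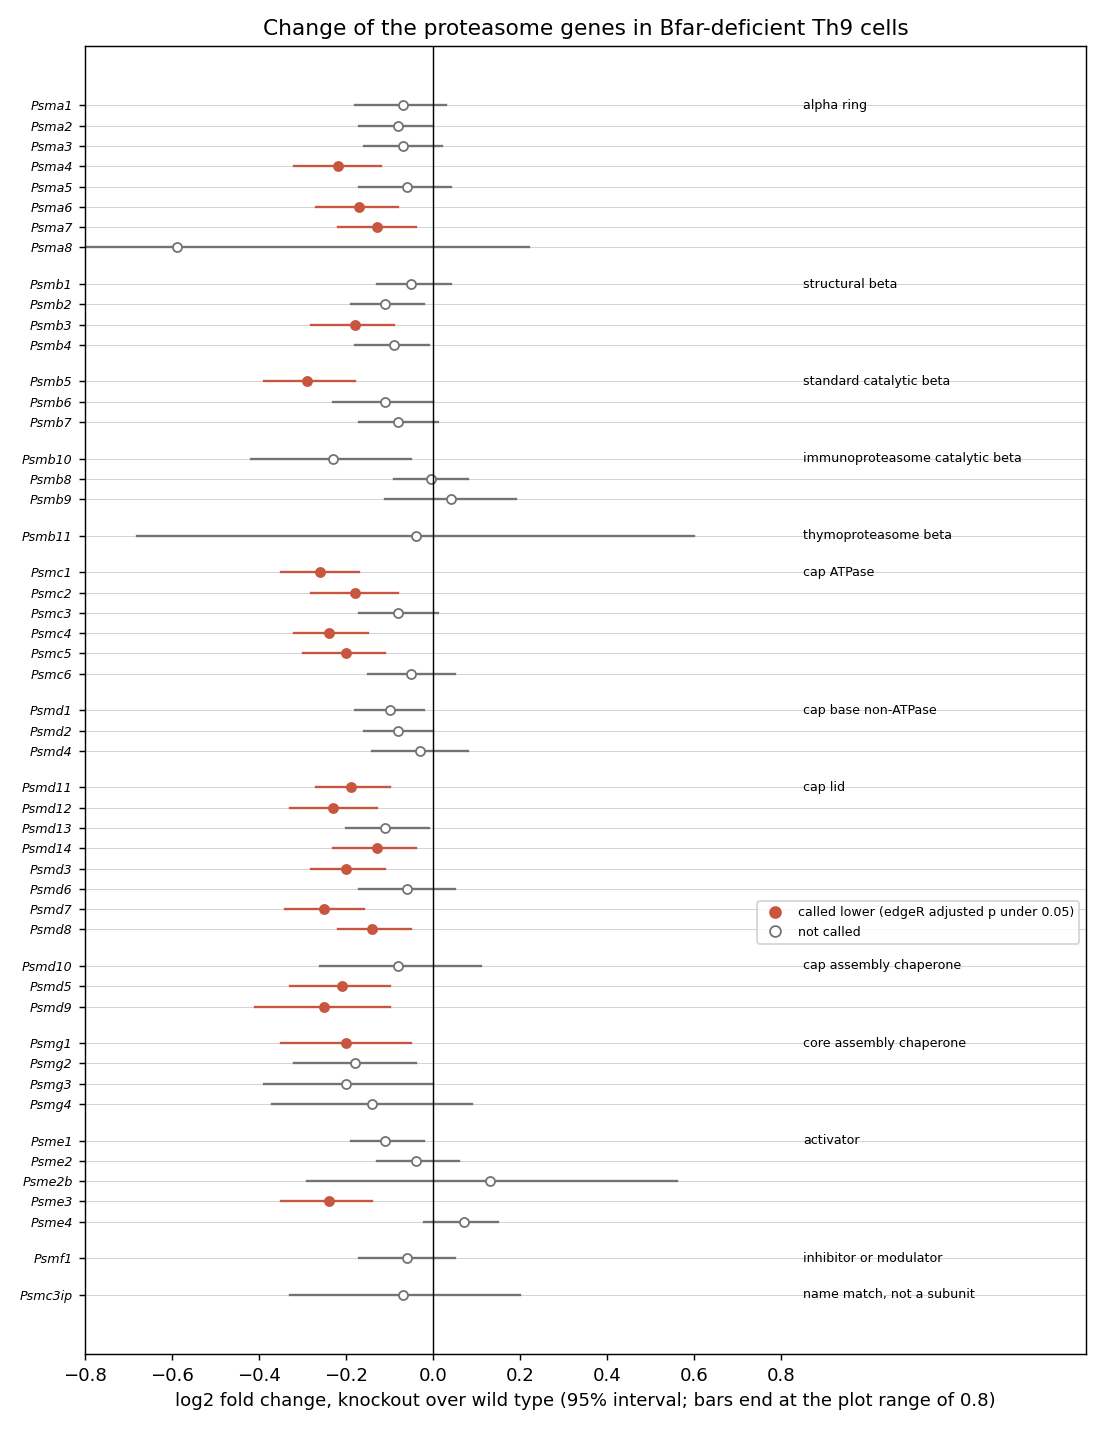
log2 fold change of each proteasome gene, knockout over wild type, with its 95% interval, grouped by role; filled points passed edgeR's test at an adjusted p under 0.05 and open points did not. The 19 called genes lie between -0.29 and -0.13. Many genes that were not called have intervals that cross 0, among them Psmb8, Psmb9 and the sparse Psma8, Psmb11 and Psme2b. The bar of Psma8 is cut at the plot edge.

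In the alpha ring, whose subunits gate the entrance, Psma4, Psma6 and Psma7 fell (all tested genes: 13.2%), and the other 5 genes did not pass the test. Psma4 had 118.0 and 107.2 FPKM in wild type and 96.2 and 96.3 in the knockout, a log2 fold change of -0.22 ± 0.05 (SE; n = 2 each; edgeR adjusted p = 0.00348). Psma6 went from 113.6 and 120.5 to 102.8 and 103.9 FPKM (log2 -0.17 ± 0.04, edgeR adjusted p = 0.00898). Psma7 went from 127.0 and 129.9 to 118.4 and 115.6 FPKM (log2 -0.13 ± 0.04, edgeR adjusted p = 0.0279). The groups do not overlap for any of these 3 genes (all tested genes, lower: 32.6%). Each call depended on single libraries: Psma4 missed the threshold without WT1 (adjusted p = 0.0767) or KO2 (0.0514), Psma6 without WT2 (0.12), KO1 (0.0719) or KO2 (0.0577), and Psma7 without any single library (0.0733 to 0.168). With DESeq2 the count in the ring was 1 (all genes, lower: 6.58%), and with no filter it was 0 (5.03%). The ring's count was also smaller when any 1 library was left out. Psma1, Psma2, Psma3 and Psma5 had log2 fold changes between -0.08 and -0.06. A short stretch of Psma4's exons (114 bases) overlaps AY074887 on the other strand, and the sources used here do not give the strand setting of the counting.

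Psma8, the alpha subunit of the testis form, had 0.78 and 0.48 FPKM in wild type and 0.37 and 0.47 in the knockout, from 12 to 26 counts per library. Its log2 fold change of -0.59 ± 0.38 (edgeR adjusted p = 0.279) has a 95% interval from -1.40 to 0.22, so a difference was not detectable at this depth.

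The structural beta subunits hold the inner rings together without cutting. Psmb3 fell from 164.1 and 166.7 FPKM to 141.0 and 149.5 (log2 -0.18 ± 0.04, edgeR adjusted p = 0.00678), a call that was lost without WT2 (0.0559) or KO1 (0.0839). Psmb2, the most abundant core gene, had 166.0 and 170 FPKM in wild type and 154.6 and 156.5 in the knockout, with an adjusted p of 0.0656. Psmb1 and Psmb4 had log2 fold changes of -0.05 and -0.09. In all 4 genes both knockout libraries lay below both wild-type libraries (all tested genes: 32.6%).

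Of the standard catalytic subunits only Psmb5, which carries the chymotrypsin-like site, passed the test. It lies at chr14:54614120-54617995 (GRCm38). Its level was 113.5 and 121.3 FPKM in wild type and 92.8 and 98.8 in the knockout, so the groups are apart. The log2 fold change was -0.29 ± 0.05 (SE; n = 2 each; edgeR adjusted p = 0.00055), the largest fall among the called members. Psmb6, with the caspase-like site, had 97.0 and 104.4 FPKM in wild type and 88.3 and 97.5 in the knockout, which overlap (log2 -0.11 ± 0.05, adjusted p = 0.142). Psmb7, with the trypsin-like site, had 142.5 and 141.7 FPKM against 133.2 and 134.7 (log2 -0.08 ± 0.04, adjusted p = 0.16): the groups are apart, but the test was not passed. The microRNA gene Mir686 is annotated over 109 bases of Psmb5's exons on the same strand, and 405 bases of Psmb7's exons overlap Nek6 on the other strand, so these counts could include reads from the neighbours.

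The immunoproteasome subunits did not pass the test. Psmb8, which takes the place of Psmb5, had 152.7 and 154.4 FPKM in wild type and 149.7 and 155.3 in the knockout. These values interleave, and the log2 fold change was -0.0048 ± 0.04 (SE; n = 2 each; edgeR adjusted p = 0.948) with a 95% interval from -0.09 to 0.08. Psmb9, which replaces Psmb6, had 37.1 and 36.3 FPKM in wild type and 35.7 and 39.5 in the knockout (log2 0.04 ± 0.07, adjusted p = 0.728; 95% interval -0.11 to 0.19). Psmb10, which replaces Psmb7, was the least abundant of the 3, with 17.7 and 15.8 FPKM in wild type and 14.6 and 13.8 in the knockout. Its groups do not overlap, its log2 fold change was -0.23 ± 0.09 and its adjusted p was 0.0621. With 1 library left out, Psmb10 had -0.31 without WT2 (0.0411), -0.15 without WT1 (0.361), -0.27 without KO1 (0.132) and -0.19 without KO2 (0.284). Psmb8 and Psmb9 lie close together on chromosome 17, at chr17:34198195-34201454 and chr17:34182030-34187330, separated by 10865 bases that hold Tap1. In the GENCODE M21 annotation, unlike the RefSeq positions above, Psmb9's exons overlap those of Tap1 on the other strand over 212 bases. The counts of Psmb9 could therefore include reads from Tap1.

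Set against its standard counterpart, Psmb8 had a higher share in both knockout libraries. It made up 57.4% and 56.0% of the summed FPKM of Psmb8 and Psmb5 in wild type, and 61.7% and 61.1% in the knockout. The ratio of Psmb8 to Psmb5 was 1.35 and 1.27 in wild type and 1.61 and 1.57 in the knockout. For the caspase-like pair the share of Psmb9 was 27.6% and 25.8% in wild type and 28.8% in both knockout libraries. For the trypsin-like pair the share of Psmb10 was 11% and 10% against 9.88% and 9.27%, the opposite direction. Over the 3 pairs summed, the immunoproteasome share was 36.5% ± 0.72 in wild type and 38.8% ± 0.17 in the knockout (SD, n = 2; exact two-sided permutation p = 0.333). The groups do not overlap in any of these 4 shares, and each gave the exact permutation p of 0.333, which is the smallest that 2 libraries against 2 allow. The mean summed FPKM of the immunoproteasome subunits was 207.0 in wild type and 204.3 in the knockout. That of their standard counterparts was 360.2 in wild type and 322.6 in the knockout. The shares are of transcripts, not of assembled particles.

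**Figure D3:**
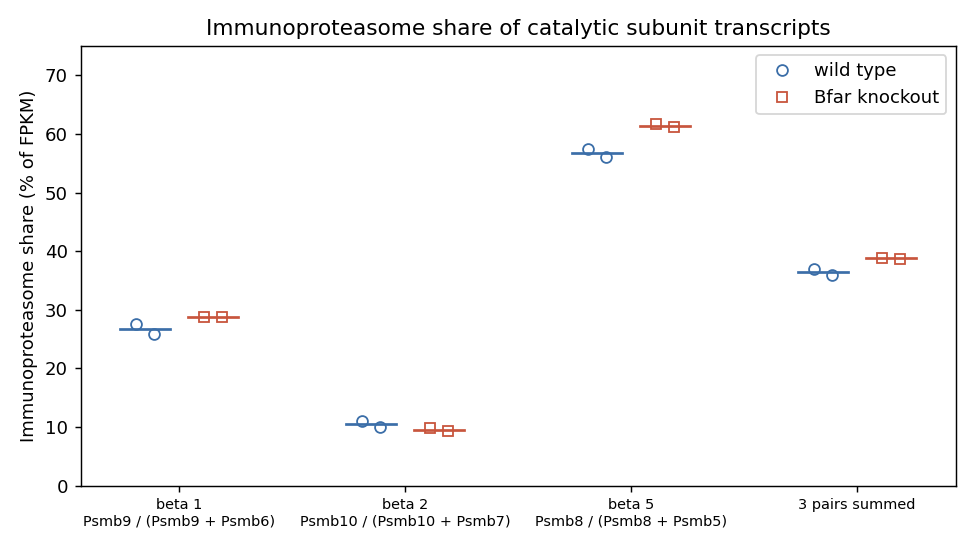
Share of the immunoproteasome subunit in the summed FPKM of each catalytic pair, in percent, with 1 point per library and a line at the mean of 2 libraries. The knockout squares lie above the wild-type circles for Psmb9 and Psmb8 and below them for Psmb10, with the widest gap for Psmb8 (57.4% and 56.0% against 61.7% and 61.1%).

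Psmb11, the catalytic subunit of cortical thymic epithelium, had 0.26 to 0.32 FPKM in the 4 libraries (20.97 to 27.1 expected counts). Foxn1, the defining factor of that epithelium, was listed in KO1 alone, at 0.02 FPKM from 1 count. Psmb11 is the neighbour of Psmb5, 7315 bases away.

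Promoter sequences were at hand for 42 members in RefSeq's GRCm38.p6 table, with 250 bases before and 50 after each start. Psma6, Psmc2 and Psme2 had more than 1 start, and a motif was counted for a gene if any start had it. The 4 motifs searched on both strands were the antioxidant response core TGACNNNGC, which the proteasome activator Nrf1 binds, the CCAAT box CCAAT, the interferon-stimulated response core (GAAA and GAAA with 2 bases of any kind between them), and the GAS core TTCNNNGAA, which reads the same on both strands. No motif contains another, though matches may overlap in part. The antioxidant response core was in the promoters of 6 of the 42 members (14.3%), against 14% of 27025 genes in the table and 16.8% of the tested genes. Among members called lower it was in 3 of 17 (Psmb5, Psmd9 and Psmd12), and among the others in 3 of 25 (Psmb6, Psmc6 and Psme4). A CCAAT box was in 15 members (35.7%; all genes 41.1%). The interferon-stimulated response core was in 5 members, Psmb3, Psmd4, Psmd9, Psme1 and Psmg4 (11.9%; all genes 3.99%), 2 of them called lower, and the GAS core in 3, Psmb8, Psmd2 and Psmg1 (7.14%; all genes 9.55%). A match is a match of letters only.

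The 120 bases before the start are shown for 2 called members with the antioxidant response core near the start, Psmb5 (chr14:54617996-54618115, minus strand) and Psmd9 (chr5:123228070-123228189, plus strand), and for the immunoproteasome genes Psmb8 (chr17:34198075-34198194, plus strand) and Psmb9 (chr17:34187331-34187450, minus strand), which were not called. Capitals mark the motifs: the antioxidant response core in Psmb5 and Psmd9, the GAS core in Psmb8 and a CCAAT box on the other strand in Psmb9.
Psmb5: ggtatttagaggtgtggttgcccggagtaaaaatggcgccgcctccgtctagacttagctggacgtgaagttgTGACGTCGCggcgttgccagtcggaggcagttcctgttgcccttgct
Psmd9: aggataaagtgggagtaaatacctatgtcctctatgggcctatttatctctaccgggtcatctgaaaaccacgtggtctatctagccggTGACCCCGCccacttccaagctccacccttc
Psmb8: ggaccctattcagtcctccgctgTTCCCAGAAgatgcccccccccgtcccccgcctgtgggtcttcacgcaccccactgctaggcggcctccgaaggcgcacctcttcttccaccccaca
Psmb9: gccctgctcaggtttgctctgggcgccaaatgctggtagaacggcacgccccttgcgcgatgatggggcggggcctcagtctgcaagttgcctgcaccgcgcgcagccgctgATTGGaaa
In Psmb5 the core starts 47 bases before the start and in Psmd9 31 bases before it, while the GAS core of Psmb8 starts 97 bases before the start. The antioxidant response core lies nearer the start in Psmb6 (9 bases before it) and Psme4 (7 bases), which were not called and are not shown. It lies farther off in the called Psmd12 (247 bases) and in Psmc6 (227 bases), which was not called. Whether the core goes with the calls was not tested.

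The cap held more of the called members than the core, as counts. Of its 17 subunits with a Psm name 10 fell, with a median log2 fold change of -0.14. Of the 14 standard core genes 5 fell, with a median of -0.10. Of all tested genes 13.2% fell. The difference between these counts was not tested. The summed level of the cap genes was 1434 and 1464 FPKM in wild type and 1295 and 1301 in the knockout, and that of the core genes 1695 and 1722 against 1551 and 1573.

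Among the 6 ATPases, which unfold the substrate and open the gate, Psmc1, Psmc4, Psmc5 and Psmc2 fell (all tested genes: 13.2%). Psmc1 (chr12:100110202-100123364) had the smallest adjusted p of all members: 95.2 and 96.8 FPKM in wild type and 81.9 and 77.7 in the knockout, a log2 fold change of -0.26 ± 0.04 (SE; n = 2 each; edgeR adjusted p = 0.000355). Psmc4 had 108.8 and 108.7 FPKM in wild type and 92.8 and 91.0 in the knockout (log2 -0.24 ± 0.04, edgeR adjusted p = 0.000459). For Psmc5 the values were 84.2 and 86.1 against 73.9 and 73.2 FPKM (log2 -0.20 ± 0.04). All 3 genes have knockout values below the lowest wild-type value (all tested genes: 32.6%). Psmc2 went from 69.7 and 71.1 to 64.8 and 59.2 FPKM (log2 -0.18 ± 0.05, edgeR adjusted p = 0.0116), and its call was lost without WT2 (0.0811) or KO2 (0.147), with DESeq2 (0.0564), with no filter (0.0848), and in FPKM with a pseudocount of 0.1 (0.0545) or 1 (0.0522). Psmc3 and Psmc6 had log2 fold changes of -0.08 and -0.05, and Psmc6 overlaps between the groups.

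The base subunits that are not ATPases did not pass the test: the scaffold genes Psmd1 and Psmd2 had log2 fold changes of -0.10 and -0.08 (edgeR adjusted p = 0.0749 and 0.128). Psmd4, a receptor for ubiquitin chains, had 87.1 and 92.4 FPKM in wild type and 82.8 and 91.9 in the knockout, which overlap (log2 -0.03 ± 0.05, adjusted p = 0.686).

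In the lid 6 of 8 genes fell (all tested genes: 13.2%). All 8 have knockout values below the wild-type values (all tested genes: 32.6%). Psmd7 (chr8:107580380-107588482), which pairs with the deubiquitinase of the lid, had 101.2 and 97.1 FPKM in wild type and 83.4 and 82.9 in the knockout (log2 -0.25 ± 0.04, SE; edgeR adjusted p = 0.000389). Psmd12 had 55.7 and 57.5 FPKM against 46.6 and 49.4 (log2 -0.23 ± 0.05, adjusted p = 0.00184). Psmd11 had 84.5 and 87.6 FPKM against 75.6 and 74.99 (log2 -0.19 ± 0.04, adjusted p = 0.00338). These 3 were called under each of the 13 alternative settings.

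Psmd3 fell from 110.3 and 112.8 to 93.7 and 100.5 FPKM (log2 -0.20 ± 0.04, edgeR adjusted p = 0.00308; 0.0578 without KO1). Psmd8, at 173.9 and 183.2 FPKM the most abundant member, fell to 159.3 and 164.1 (log2 -0.14 ± 0.04, adjusted p = 0.0183). Psmd14, the deubiquitinase that removes the chain before degradation, went from 54.8 and 57.7 to 51.3 and 50.9 FPKM (log2 -0.13 ± 0.05, edgeR adjusted p = 0.0432). Psmd8 missed the threshold without WT2 (0.187), KO1 (0.14) or KO2 (0.0593), and Psmd14 without any single library (0.061 to 0.292). Psmd14 also missed it with upper-quartile factors (0.0667). Both missed it with DESeq2 (0.0529 and 0.247), with no filter (0.0814 and 0.105) and in FPKM (0.0517 to 0.0582). The count in the lid was 3 without KO1. Psmd6 and Psmd13 had log2 fold changes of -0.06 and -0.11.

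Assembly chaperones escort the subunits and leave before the particle is complete. Of those of the cap base, Psmd5 fell from 25.9 and 26.1 to 21.8 and 22.9 FPKM (log2 -0.21 ± 0.05, edgeR adjusted p = 0.00802) and Psmd9 from 10.6 and 10.2 to 8.60 and 8.80 FPKM (log2 -0.25 ± 0.07, edgeR adjusted p = 0.0188). Psmd10, which is also known as gankyrin, had 12.7 and 12.9 FPKM against 11.6 and 12.6 (adjusted p = 0.561). Both calls were lost with DESeq2 (0.0931 and 0.17). Psmd5 also missed the threshold without WT2 (0.0562) or KO1 (0.0772), and Psmd9 without WT1 (0.117), KO1 (0.113) or KO2 (0.0845) and with no filter (0.0553).

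The core chaperones Psmg1 to Psmg4 had log2 fold changes between -0.20 and -0.14. In all 4 the knockout values lie below the wild-type values (all tested genes: 32.6%). Only Psmg1 passed, with 33.5 and 31.1 FPKM in wild type and 28.2 and 27.9 in the knockout (log2 -0.20 ± 0.07, edgeR adjusted p = 0.0419). It missed the threshold without WT1 (0.269), KO1 (0.138) or KO2 (0.161), with DESeq2 (0.264), with no filter (0.101) and with upper-quartile factors (0.0544). Psmg2 and Psmg3 had adjusted p-values of 0.0551 and 0.128 in edgeR, and 0.0443 and 0.0402 with log2(FPKM + 0.1). The chaperones had 178 to 1065 counts per library where the subunits of the standard core and the cap had 1053 to 6468, and their standard errors were larger, from 0.05 to 0.11 against 0.04 to 0.05.

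Among the activators, which open the core without ATP, only Psme3 fell. It encodes the nuclear form and lies at chr11:101316213-101323537. Its level was 155.8 and 157.7 FPKM in wild type and 140.6 and 123.2 in the knockout (log2 -0.24 ± 0.05, SE; edgeR adjusted p = 0.0019), so KO2 was the lowest. The adjusted p was 0.0546 with DESeq2 and 0.0633 with no filter. Psme1 and Psme2 encode the activator that interferon gamma induces and lie 5913 bases apart on chromosome 14, with Emc9 between them. Psme1 had 168.7 and 170.4 FPKM in wild type and 156.1 and 157.5 in the knockout (log2 -0.11 ± 0.04, adjusted p = 0.0547). Psme2 had 123.4 and 129.4 FPKM against 123.5 and 121.3, which overlap (adjusted p = 0.592). Of the 31-base words of Psme2, 33.5% occur in the copy Psme2b (2.80 to 3.99 FPKM), and 76.5% of those of Psme2b occur in Psme2. Both values are therefore uncertain, and that of the sparse Psme2b more so. Exons of Psme2b also overlap 9930111J21Rik1 on the same strand over 41 bases. Psme4, a large activator of the nucleus, had 19.4 and 19.6 FPKM in wild type and 20.6 and 20.1 in the knockout (log2 0.07 ± 0.04, adjusted p = 0.26).

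Psmf1, which encodes the inhibitor PI31, had 14.98 and 14.3 FPKM against 13.8 and 14.2 (log2 -0.06 ± 0.05, edgeR adjusted p = 0.441). Psmc3ip, the name match, had 6.91 to 7.68 FPKM in the 4 libraries (adjusted p = 0.747).

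Genes that work with the proteasome but have other names were read from the same fit. Of 15 associated factors 7 fell and 0 rose (all tested genes: 13.2% and 13.6%), with a median log2 fold change of -0.11. Adrm1, the ubiquitin receptor of the cap, had 122.7 and 114.6 FPKM in wild type and 102.2 and 101.4 in the knockout (log2 -0.22 ± 0.04, edgeR adjusted p = 0.00175). Uchl5, the deubiquitinase that Adrm1 holds, had 32.4 and 33.5 FPKM against 27.6 and 27.5 (log2 -0.25 ± 0.05, adjusted p = 0.00196). Ubqln4, a shuttle that carries ubiquitinated proteins to the cap, had a log2 fold change of -0.16 ± 0.04 (adjusted p = 0.00887; 0.0896 without WT1, 0.0748 without KO2 and 0.0514 with DESeq2). Those that fell also included Pomp, which closes core assembly, the shuttle Rad23b, and Zfand5, named after their values were seen. The count of associated factors that fell was 3 with DESeq2 (all genes, lower: 6.58%) and 3 with no filter (5.03%). It was 3 with log2(FPKM + 0.1) and 4 with log2(FPKM + 1), where the share over all genes is not given here. Leaving out any 1 library also gave a smaller count.

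**Figure D4:**
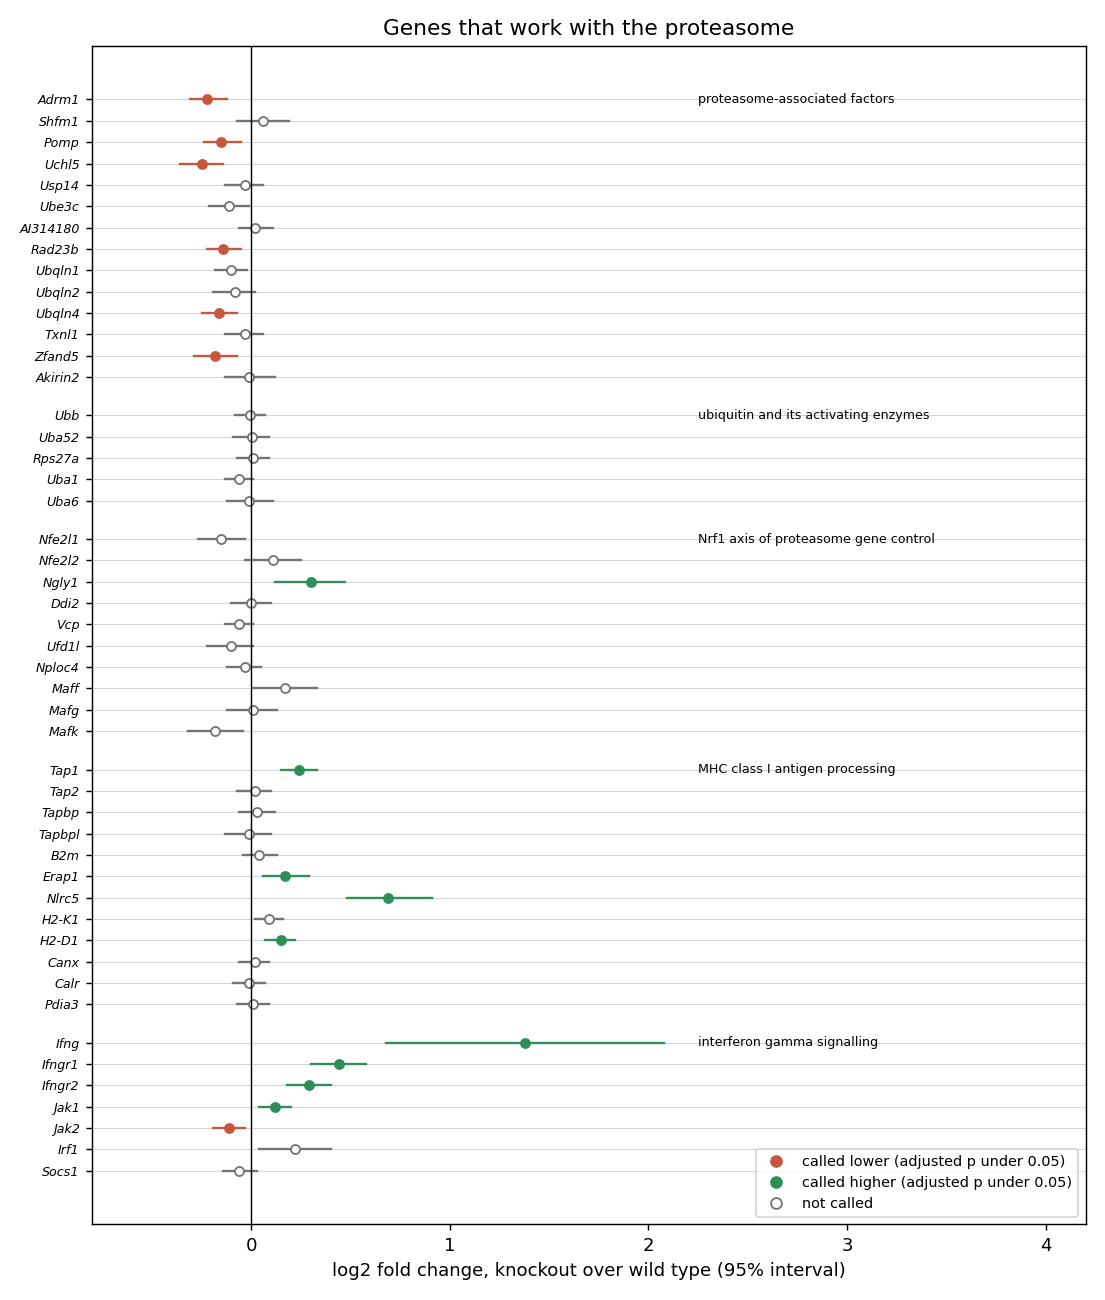
log2 fold change, knockout over wild type, with its 95% interval, for the reported genes of 5 lists of proteasome partners; filled points passed edgeR's test at an adjusted p under 0.05. The called associated factors lie left of 0, while the called MHC class I genes and most called interferon gamma genes lie right of 0.

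Ubiquitin is the tag that the cap recognises. Uba1, the main enzyme that activates it, had 309.0 and 309.5 FPKM in wild type and 296.9 and 292.9 in the knockout (log2 -0.06 ± 0.03, edgeR adjusted p = 0.169).

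The transcription factor Nrf1, encoded by Nfe2l1, raises proteasome genes when proteasome activity is short. Of 10 tested genes of its axis 0 fell and 1 rose, near the 13.2% and 13.6% of all tested genes. Without WT2 or KO1 the axis had 1 call lower and 0 higher, and with length and GC trends removed 1 lower and 2 higher. With DESeq2, and without KO2, it had none in either direction. Nfe2l1 had 63.4 and 58.1 FPKM in wild type and 57.9 and 50.6 in the knockout (log2 -0.15 ± 0.06, edgeR adjusted p = 0.0642). With 1 library left out, Nfe2l1 had -0.07 without WT1 (0.483), -0.22 without WT2 (0.0259), -0.24 without KO1 (0.0321) and -0.06 without KO2 (0.543). Ngly1, which trims sugars from Nrf1, rose from 6.23 and 6.14 to 7.46 and 7.67 FPKM (log2 0.30 ± 0.08, adjusted p = 0.0129), a call lost without WT2 (0.0572), KO1 (0.0553) or KO2 (0.101) and with DESeq2 (0.13). Mafk, a small partner of Nrf1, had -0.18 ± 0.07 (adjusted p = 0.06).

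Genes of MHC class I display, which receives the peptides, were among those called higher. Of 12 genes 4 rose and 0 fell (all tested genes: 13.6% and 13.2%), with a median log2 fold change of 0.04. Nlrc5, the transactivator of class I genes, had 1.55 and 1.54 FPKM in wild type and 2.33 and 2.65 in the knockout (log2 0.69 ± 0.10, edgeR adjusted p = 0.000133). Tap1, which pumps peptides into the endoplasmic reticulum and adjoins Psmb9, had 46.1 and 44.5 FPKM against 54.0 and 52.6 (log2 0.24 ± 0.04, adjusted p = 0.00051). H2-D1 had 0.15 ± 0.03 (adjusted p = 0.00583; 0.0571 without WT2). The count was 2 without WT2.

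Of 8 genes of interferon gamma signalling 4 rose and 1 fell (all tested genes: 13.6% and 13.2%). The receptor chain Ifngr1 had 13.8 and 14.99 FPKM in wild type and 19.2 and 19.8 in the knockout (log2 0.44 ± 0.06, edgeR adjusted p = 0.000143), and Ifngr2 had 41.4 and 44.3 against 50.03 and 54.2 (log2 0.29 ± 0.05, adjusted p = 0.000666). Ifng was sparse, at 0.42 and 0.85 FPKM against 1.69 and 1.63 (log2 1.38 ± 0.33, adjusted p = 0.0059), and missed the threshold without WT1 (0.0846), with DESeq2 (0.06) and with no filter (0.0527). The gene that fell was Jak2, named after its value was seen, and it was not called when any 1 library was left out. With no filter, and without WT1, the count of rises was 2.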

How the data were processed

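The deposited tables give, for each gene and library, the expected count (RSEM's estimated count), the FPKM and the length, per the file headers. Bowtie, RSEM and the build GRCm38 (mm10) are named in the submitters' processing notes, without versions. FPKM values were used as the authors made them. Gene positions and promoters come from RefSeq (GRCm38.p6).

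Expected counts were rounded and tested over all genes with edgeR 4.0.16 (quasi-likelihood, two-sided, TMM, default filter with minimum count 10 and total 15) in R 4.3.3, adjusted by Benjamini-Hochberg over 12677 genes. A gene missing from a table counted as 0 there. Alternatives were DESeq2 1.42.0, limma 3.58.1 (voom, and log2(FPKM + 0.1) and log2(FPKM + 1)), other scaling and filters, each library left out, and a replicate block. With 1 library left in a group, the spread comes from the other group. Replicates of a group differed beyond counting noise (chi-square per degree of freedom 2.21 and 2.55), and the labels name no batch. The standard error is the absolute log2 fold change over the square root of F, and the 95% intervals use the same fit. The expected counts per library put 3 counts at 0.152 to 0.157 CPM.

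Members, lists and tests were chosen with earlier results of these data known. The rule for genes outside the members was Bfar and, from each list, up to 3 genes with the smallest adjusted p; all members are named. GENCODE M21 gave shared 31-base words and exon overlaps. Some genes of the lists are not reported here.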

Additional observations from a re-analysis of the deposited data

How the results depend on the processing

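The number of members called lower was 19 in the edgeR fit, 10 under DESeq2, 10 without a filter on low values, 17 with upper-quartile factors, 19 with RLE size factors, limma-voom, a mean of at least 1 CPM or log2(FPKM + 1), and 18 with log2(FPKM + 0.1). Leaving out 1 library gave 10 to 14. With smooth trends on transcript length and GC content removed, an alternative added after the data were seen, it was 15, all among the 19. No member was called higher in any of these fits. The share of all tested genes called lower is given above only for the edgeR fit, DESeq2, no filter, without KO1 and without KO2. Whether the counts of the other fits moved with the calls over all genes cannot be read here. The count over the partner lists was 18, and 10 with DESeq2, 9 with no filter, 10 with log2(FPKM + 0.1), 11 with log2(FPKM + 1) and 8 to 12 without 1 library. These partner counts pool lower and higher calls over lists of 15, 6, 10, 12 and 8 tested genes. In the edgeR fit 13.2% of all tested genes fell and 13.6% rose. The share of all genes called higher is not given here for the other fits. Whether the partner lists held more calls than all tested genes was not tested. The difference in immunoproteasome share was 2.27 percentage points, 2.2 in expected counts and 1.76 to 2.79 without 1 library.

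Sign changes were seen in genes that were not called. With 1 library left out, the log2 fold change ran from -0.19 to 0.09 for Psmb11, from -0.03 to 0.02 for Psmb8, from -0.04 to 0.11 for Psmb9, from -0.1 to 0.01 for Psmc6, from -0.11 to 0.04 for Psmd4, from -0.14 to 0.37 for Psme2b, from -0.14 to 0.01 for Psmc3ip and from -0.02 to 0.04 for Rps27a. Psmb8 had 0.01 with upper-quartile factors. The cause was not tested.

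Same-numbered libraries did not deviate together (correlation 0.00673 across 12677 genes), so the numbers were not read as pairs. With the replicate block, 25 members were called lower and 22 partner genes were called. The share of all tested genes called under this block is not given here. Members with few counts, such as Psma8 and Psmb11, are limited by depth.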
